A study of Mus musculus with 41 samples.

Results

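The receptor gene *Ccr1* and the chemokine genes *Ccl3*, *Ccl4* and *Ccl5* were examined in tissue from 41 female NSG mice. They were taken by name and are 4 of 54 mouse target genes quantified with TaqMan assays in a Fluidigm qPCR run. The groups were 7 sham, 6 P and 7 P+eMSC mice at 1 week and 6 sham, 8 P and 7 P+eMSC mice at 6 weeks after surgery. P is a degradable electrospun nanomesh of poly L-lactic acid and poly ε-caprolactone, placed under the abdominal skin. P+eMSC is the same mesh with human endometrial mesenchymal stem/stromal cells (eMSC), labelled with mCherry, added on top. The sham controls were the third treatment, and all 3 share the strain, sex and tissue. The ages were not given in the sources used here.

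NSG mice lack mature T, B and NK cells, so the cells that make and sense these chemokines are mainly myeloid and stromal in this host. The mRNA came from tissue close to the mesh and not from cells taken out of it, and the assays were designed for mouse transcripts. Some mice had also served in an earlier study of the same laboratory. In such bulk tissue, fewer cells of a type and less RNA per cell cannot be told apart.

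Chemokines are small secreted proteins that draw leukocytes along a gradient, and they act through receptors that couple to G proteins. Ccr1 is carried by monocytes, macrophages and neutrophils and binds Ccl3 and Ccl5. Ccl3 and Ccl4 are the macrophage inflammatory proteins 1 alpha and 1 beta, encoded by neighbouring genes. Ccl5, also named RANTES, is a further chemokine that attracts leukocytes. After a biomaterial is implanted, such chemokines take part in bringing in the macrophages that surround it.

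In the RefSeq annotation of GRCm38.p6, *Ccl3*, *Ccl4* and *Ccl5* lie on chromosome 11 and *Ccr1* on chromosome 9, and *Ccl4* is the gene next to *Ccl3*. Promoter sequences from RefSeq were at hand for 2 of the 4 genes. They are shown because a ligand and its receptor varied together across mice, as did most of the panel, which is described further on. Any link between these sequences and that variation was not tested. Each line gives the 250 bases before the start of the gene, on its own strand, in lower case because none of the motifs searched was found.
Ccl3, chr11:83649379-83649628, minus strand: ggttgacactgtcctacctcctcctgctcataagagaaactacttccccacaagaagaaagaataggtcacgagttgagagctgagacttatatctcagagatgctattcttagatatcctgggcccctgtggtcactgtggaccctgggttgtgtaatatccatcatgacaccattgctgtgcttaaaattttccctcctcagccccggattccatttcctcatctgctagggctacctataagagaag
Ccr1, chr9:123968693-123968942, minus strand: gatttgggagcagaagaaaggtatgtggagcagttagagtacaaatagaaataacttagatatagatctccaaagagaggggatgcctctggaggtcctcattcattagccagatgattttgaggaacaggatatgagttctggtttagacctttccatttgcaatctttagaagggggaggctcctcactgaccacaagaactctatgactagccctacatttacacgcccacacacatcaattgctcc
The letters searched, on both strands, were GGGANNTTC (from the NF-kB site), TTGCNNAA (C/EBP), GAGGAAGT (PU.1) and TGANTCA (AP-1). Over all 32851 promoters of the table, 3.23%, 9.56%, 2.44% and 6.75% held them in the same window.

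The level of a gene is given as the Ct of 18S minus the Ct of the gene in the same mouse, on the log2 scale. A less negative level therefore means more mRNA, and levels of different assays are not compared with each other. *Ccl3* and *Ccl5* were detected in each of the 41 mice, *Ccr1* in 40 and *Ccl4* in 37. *Ccl4* had no Ct in mice 52 and 121 (P at 6 weeks), 78 (P+eMSC at 1 week) and 2210 (P+eMSC at 6 weeks), and *Ccr1* had none in mouse 52. Mouse 52 also had the highest 18S Ct, 7.79 against a median of 6.82, and held 31 of the 40 undetected values of the panel. *Ccl3* was the latest assay, with a median Ct of 25.4, the highest of the 54 genes. The *Ccr1* assay code ends in s1, the suffix for a probe within a single exon, which can also amplify genomic DNA. Samples without reverse transcription were not analysed here.

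The ligands varied widely between mice of 1 group. The pooled SD within groups was 3.26 for *Ccl3*, 3.03 for *Ccl4* and 2.79 for *Ccl5* on the log2 scale, ranks 2, 5 and 6 of the 54 genes. That of *Ccr1* was 2.11, rank 23, against a median of 2.01 over the panel. From the lowest to the highest mouse, the level of *Ccl3* spanned 12.8 log2 units, that of *Ccl4* 11.4, that of *Ccl5* 10.5 and that of *Ccr1* 8.07. In 4 of the 6 groups the same mouse was highest for all 3 ligands, namely mouse 2269 (sham, 1 week), 10 (P+eMSC, 1 week), 408 (sham, 6 weeks) and 2317 (P+eMSC, 6 weeks). Mice 2269 and 10 were highest in *Ccr1* as well, whereas in mice 408 and 2317 the receptor was not the highest of the group. Mouse 2269 was highest in its group for 42 of the 54 genes, mouse 10 for 23, mouse 2317 for 19 and mouse 408 for 15.

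**Figure D1:**
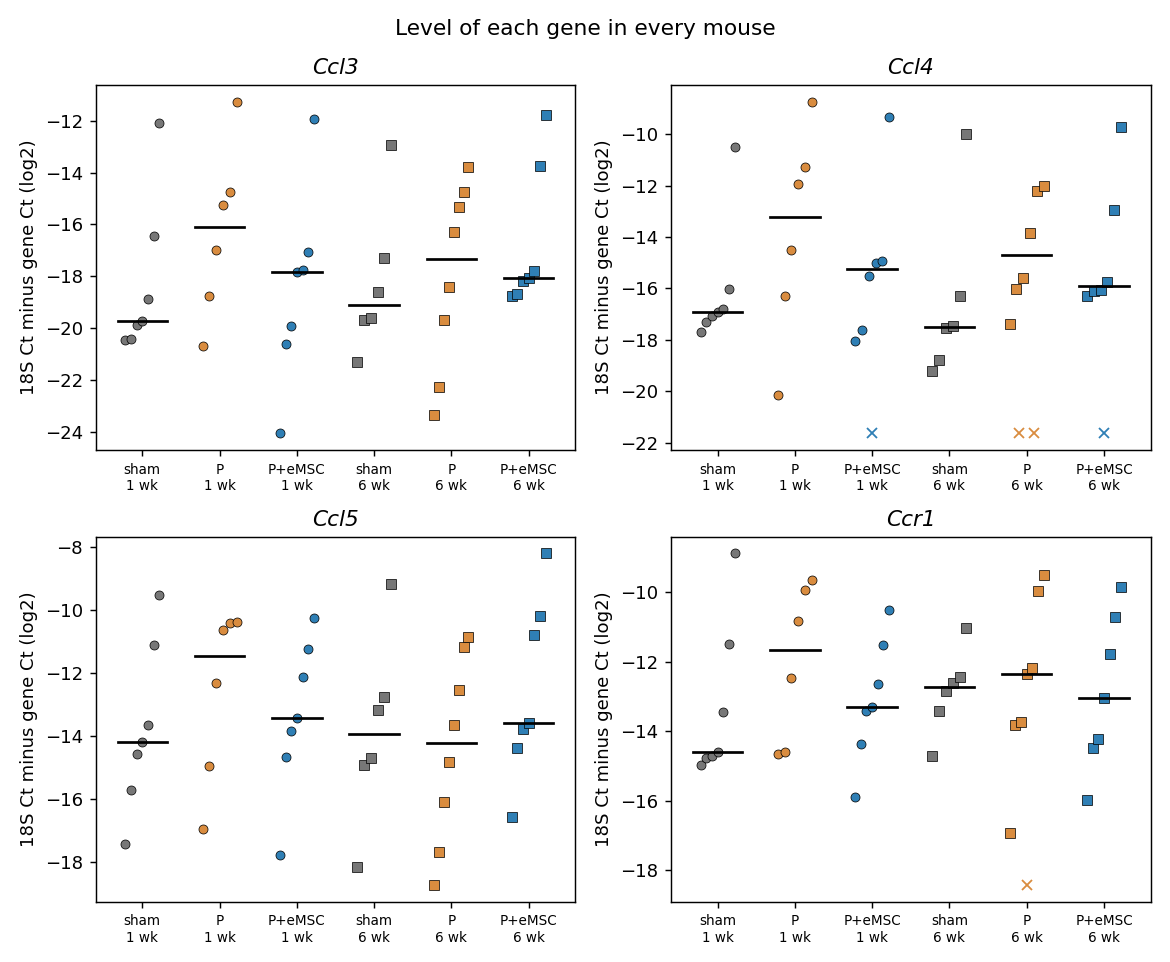
Level of each gene (18S Ct minus gene Ct, log2) in every mouse of the 6 groups, with 1 point per mouse, a line at the group median and crosses at the foot of a panel for undetected values. The P group at 1 week has the highest median for each gene, and every group overlaps every other.

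P mice at 1 week had the highest median of the 6 groups for each of the 4 genes. The order below P at 1 week differed between genes, and the values of all 6 groups overlapped. For *Ccr1*, the median was -11.65 in P at 1 week (from -14.67 to -9.63), -12.37 in P at 6 weeks (from -16.94 to -9.50) and -12.73 in sham at 6 weeks (from -14.71 to -11.03). It was -13.05 in P+eMSC at 6 weeks (from -15.98 to -9.84), -13.32 in P+eMSC at 1 week (from -15.90 to -10.50) and -14.61 in sham at 1 week (from -14.96 to -8.87). None of the 9 comparisons of these groups was called for *Ccr1*, so no neighbours in this order differed beyond their spread.

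The first question was whether eMSC on the mesh changed these genes against the mesh alone. At 1 week all 4 genes were lower in P+eMSC than in P by their estimated shift, but none passed the test. The levels of *Ccl3* ran from -20.69 to -11.26 in P, with a median of -16.11, and from -24.07 to -11.91 in P+eMSC, with a median of -17.84. The groups overlapped over most of that range. The Hodges-Lehmann shift, the median of all differences between a mouse of the first group and a mouse of the second, was -2.42 for *Ccl3* (95% interval -6.58 to 2.86, p = 0.295 in the exact two-sided Mann-Whitney test, n = 7 and 6). The level of *Ccl4* had a median of -13.22 in P (from -20.14 to -8.73) and -15.26 in the 6 P+eMSC mice with a value (from -18.04 to -9.32). Its shift was -1.54 (interval -6.27 to 4.61, exact p = 0.485). The level of *Ccl5* had a median of -11.46 in P (from -16.93 to -10.37) and -13.42 in P+eMSC (from -17.77 to -10.23). Its shift was -0.84 (interval -4.03 to 3.09, exact p = 0.731). The receptor followed the same sign, with a shift of -1.08 for *Ccr1* (interval -3.69 to 1.97, exact p = 0.445). The count of members called at the study's threshold of p of 0.0513 or less was 0 of 4, and over the panel 0 of 54 genes (0%) were called. The adjusted p was 0.981 for each of the 4 genes over all 54. The median shift of the members was -1.31, and that of all 54 genes was -0.073. The intervals still include falls of more than 3 log2 units and rises of more than 1.

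The mice carry animal numbers either below 1000 or above 2000, and the shift at 1 week differed between these number series. Among mice numbered above 2000 (3 P+eMSC, 4 P) the shift was -4.94 for *Ccl3*, -5.90 for *Ccl4*, -2.03 for *Ccl5* and -2.18 for *Ccr1*. Among those numbered below 1000 (4 P+eMSC, of which 3 had *Ccl4*, and 2 P) it was 0.45, 1.03, 0.86 and 0.03. What the number series stands for is not given in the sources used here, and the difference between them was not tested.

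At 6 weeks the direction of the members depended on the reference, and none was called. With 18S as the reference the shifts lay on both sides of 0. *Ccl5* had a median of -14.22 in the 8 P mice (from -18.72 to -10.84) and -13.56 in the 7 P+eMSC mice (from -16.56 to -8.19). Its shift was 1.95 (interval -1.85 to 5.32, exact p = 0.232), the largest of the 4. *Ccl3* had a shift of 1.01 (interval -3.31 to 4.67, exact p = 0.536), *Ccl4* one of -0.23 (interval -3.84 to 3.07, exact p = 0.699) and *Ccr1* one of -0.49 (interval -3.55 to 2.72, exact p = 0.805). Mouse 52 was the lowest P mouse for both *Ccl5* and *Ccl3*. The difference in means, from the limma fit described below, was 1.95 for *Ccl5* and 1.27 for *Ccl3*. Without mouse 52 it was 1.34 and 0.50. Again 0 of 4 members were called, while 10 of the 54 genes (18.5%) were, all of them higher in P+eMSC. The median shift was 0.39 over the members and 1.15 over all genes. Because most of the panel stood higher against 18S in P+eMSC, the same comparison was made against the median of the panel in a mouse, over genes detected in every mouse of both groups and without the 4 members. That reference held 21 genes, because mouse 52 lacked 31 of the 54. Most of the 10 genes called higher in P+eMSC are among them. All 4 shifts against it lay below 0, at -1.66 for *Ccl3*, -1.88 for *Ccl4*, -0.58 for *Ccl5* and -1.90 for *Ccr1*. The exact p was 0.536, 0.240, 0.779 and 0.259. A fall of the members cannot be told here from a rise of the reference. Within the number series the shift of *Ccl5* was 2.13 (numbers below 1000) and 0.68 (above 2000), that of *Ccl3* 1.23 and -1.76, that of *Ccl4* 0.04 and -1.57 and that of *Ccr1* -0.09 and -1.82.

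**Figure D2:**
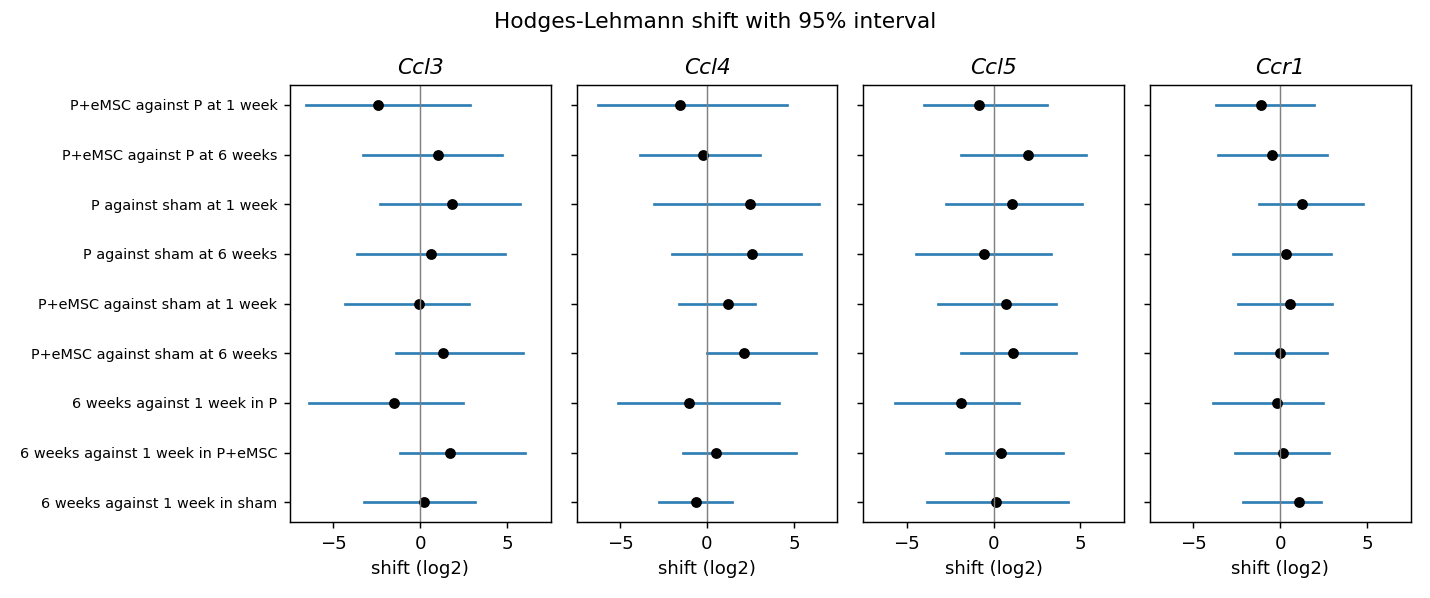
Hodges-Lehmann shift (log2, first group minus second) of each gene in the 9 comparisons, with points for the shift and lines for its 95% interval. Every interval includes 0.

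A limma fit over all 41 mice tested whether the eMSC effect differed between weeks. The interaction was 3.45 ± 2.31 (SE) for *Ccl3*, 2.68 ± 2.0 for *Ccl5*, 1.29 ± 2.30 for *Ccl4* and 0.84 ± 1.59 for *Ccr1* on the log2 scale, with adjusted p in limma of 0.485, 0.485, 0.662 and 0.662. No member was called at an adjusted p below 0.05, nor was any of the 54 genes (0%). All 54 interactions were above 0, with a median of 1.70. Against the panel median the interaction was 1.10 for *Ccl3*, 0.32 for *Ccl5*, 0.19 for *Ccl4* and -0.49 for *Ccr1*, with an adjusted p in limma of 0.999 for each. There 21 of the 54 interactions were above 0, and their median was -0.10.

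Against the sham controls, and with 18S as the reference, *Ccl4* gave the largest shifts of the 4 members. At 1 week its shift in P against sham was 2.50 (interval -3.06 to 6.42, exact p = 0.234). All but 1 of the 7 sham mice lay between -17.70 and -16.01, and mouse 2269 reached -10.48. The P mice ran from -20.14 (mouse 2355) to -8.73. Without mouse 2355 the shift was 4.08 (interval 0.50 to 7.28, exact p = 0.048, adjusted p = 0.670, n = 5 and 7), and *Ccl4* was called, with 2 of 54 genes (3.7%) called in all. Leaving out the mice 1 at a time gave shifts from 1.51 to 4.08 and exact p from 0.048 to 0.43, with a call only for mouse 2355. With all mice *Ccl3* had a shift of 1.81 (exact p = 0.295), *Ccr1* one of 1.27 (exact p = 0.234) and *Ccl5* one of 1.05 (exact p = 0.534). All 4 shifts were above 0, with a median of 1.54 against -0.10 over all genes. Of the members 0 of 4 were called, and of the panel 3 of 54 (5.56%), each lower in P.

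At 6 weeks the shift of *Ccl4* in P against sham was 2.61 (interval -2.04 to 5.43, exact p = 0.093, n = 6 and 6). The levels were -19.20, -18.78, -17.53, -17.46, -16.28 and -9.99 in the sham mice and -17.40, -16.01, -15.59, -13.83, -12.23 and -12.03 in the P mice. Sham mouse 408 lay above all the P mice, and 4 of the other 5 sham mice lay below the lowest of them. In P+eMSC against the same sham mice the shift was 2.12 (interval -0.02 to 6.27, exact p = 0.065, n = 6 and 6). The P+eMSC levels were -16.30, -16.11, -16.07, -15.76, -12.93 and -9.73, all but the lowest above 5 of the 6 sham mice. Without mouse 408 *Ccl4* was called in both comparisons, with a shift of 3.40 in P (interval 0.27 to 6.55, exact p = 0.0087, adjusted p = 0.098) and 2.81 in P+eMSC (interval 0.52 to 7.73, exact p = 0.0087, adjusted p = 0.468). Both rest on the same 5 sham mice. Over the panel 14 of 54 genes (25.9%) were then called in P, *Ccl4* being the only one that was higher, and *Ccl4* was the single gene called (1.85%) in P+eMSC. The 3 undetected *Ccl4* values at 6 weeks, in mice 52, 121 and 2210, were left out of these shifts. All 3 were in mesh groups and none in sham. Leaving them out can therefore raise the shifts against sham if they stand for low levels. Mice 121 and 2210 each lacked only 1 of the 54 genes. Ranked lowest, the undetected values would lie below every sham mouse. Both calls without mouse 408 therefore hold only for the mice with a Ct, and no p was computed there with these values ranked lowest.

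Against 18S the shifts of the other members at 6 weeks were smaller than that of *Ccl4*. In P against sham the shift was 0.60 for *Ccl3*, 0.34 for *Ccr1* and -0.53 for *Ccl5*, with exact p of 0.852, 0.731 and 0.852. With all mice 0 of 4 members were called, against 14 of 54 genes (25.9%, or 22.2% at an unadjusted p below 0.05), every one lower in P. The median shift over all genes was -0.83. Against the panel median all 4 shifts were above 0, at 2.81 for *Ccl3*, 4.40 for *Ccl4*, 1.16 for *Ccl5* and 1.16 for *Ccr1*. The exact p was 0.108, 0.065, 0.282 and 0.295, and again 0 of 4 were called. Against 18S 43 of 54 genes stood lower in P. A rise of the members therefore cannot be told here from a fall of the reference. In P+eMSC against sham the shift was 1.29 for *Ccl3*, 1.13 for *Ccl5* and 0.01 for *Ccr1*, with exact p of 0.295, 0.534 and 1. At 1 week P+eMSC against sham gave shifts of -0.06 (*Ccl3*), 1.21 (*Ccl4*), 0.73 (*Ccl5*) and 0.59 (*Ccr1*), with exact p from 0.534 to 1. In both P+eMSC comparisons with sham 0 of 4 members and 0 of 54 genes (0%) were called.

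Between 1 and 6 weeks no member was called in any treatment. In P all 4 shifts were below 0, from -1.85 for *Ccl5* (interval -5.70 to 1.46, exact p = 0.181) to -0.19 for *Ccr1*, and 0 of 54 genes (0%) were called. In P+eMSC all 4 lay above 0, from 0.15 (*Ccr1*) to 1.73 (*Ccl3*, exact p = 0.620), and again 0 of 54 genes (0%) were called. In sham the shift was 1.11 for *Ccr1* (exact p = 0.295), 0.20 for *Ccl3*, 0.13 for *Ccl5* and -0.63 for *Ccl4*. Here 2 of 54 genes (3.7%) were called higher at 6 weeks. Over the panel 40 of 54 genes lay below 0 in P, with a median of -0.50. In P+eMSC 51 of 54 lay above 0 (median 0.88), and in sham 44 of 54 (median 0.51). The median over the members was -1.26 in P, 0.50 in P+eMSC and 0.16 in sham.

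The panel held 11 further chemokines and receptors. In P+eMSC against P at 1 week, 0 of 11 were called and 9 had a shift below 0, with a median of -1.09. At 6 weeks 2 of 11 were called higher and 9 had a shift above 0, with a median of 1.13. The whole panel had 47 of 54 genes above 0 at 6 weeks, with a median of 1.15 and 10 called (18.5%). At 1 week 28 of 54 were below 0, with a median of -0.073. The list medians in this paragraph are to be read against these panel values. Of the 4 inflammatory genes *Il1b*, *Il6*, *Tnfa* and *Nos2*, none was called in either comparison, and their median shift was -1.09 at 1 week and 0.84 at 6 weeks. Among markers of the cells that could carry or make these chemokines, the 3 myeloid markers *Mrc1*, *Arg1* and *Ccr2* had a median shift of -0.43 at 1 week and 1.94 at 6 weeks, with 0 of 3 called. The 5 collagen genes taken as fibroblast markers had a median shift of 0.35 and 1.18, with 0 of 5 called. The summed level of the myeloid markers ran from -9.04 to -5.07 in P and from -10.96 to -4.32 in P+eMSC at 1 week. At 6 weeks it ran from -16.20 to -5.57 and from -9.15 to -3.66. The P mice at 6 weeks include mouse 52, whose median level over the panel was -16.70. The sum adds different assays and mostly follows *Mrc1*. In P at 1 week the median was -7.24 for *Mrc1*, -10.77 for *Arg1* and -10.94 for *Ccr2*. The part of such cells in the levels of the members was not tested.

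The next question was whether each ligand varied with the receptor from mouse to mouse. Levels were centred on the group mean, so that differences between groups did not enter. *Ccl5* followed *Ccr1* with a Pearson r of 0.80 and a Spearman rho of 0.84 (n = 40), *Ccl3* with 0.78 and 0.84 (n = 40) and *Ccl4* with 0.72 and 0.75 (n = 37). Each permutation p was 1e-05, the smallest that the permutations can give, and the adjusted p of rho was 1.71e-05 over the 53 other genes. Without the 2 mice farthest from the *Ccr1* median, 2269 and 438, r was 0.80, 0.75 and 0.67.

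These correlations were not set apart from the panel. All 53 other genes had an r above 0 with *Ccr1*, with a median of 0.75, and 49 of 53 (92.5%) passed an adjusted p of rho below 0.05. By rho, *Ccl5* ranked 7, *Ccl3* 8 and *Ccl4* 25 of the 53. Every level shares the 18S value, the RNA and the preamplification of its mouse. When the panel median replaced 18S, the median r over all genes was 0.36. By the adjusted p of rho 33 of 53 genes (62.3%) passed, 26 of them with a positive and 7 with a negative rho. The ligands then gave an r of 0.70 (*Ccl3*), 0.63 (*Ccl5*) and 0.60 (*Ccl4*), with permutation p of 1e-05, 9e-05 and 3e-05, and ranked 5, 11 and 9 by rho. Centred on both group and number series, r was 0.75 for *Ccl3*, 0.70 for *Ccl4* and 0.83 for *Ccl5*.

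**Figure D3:**
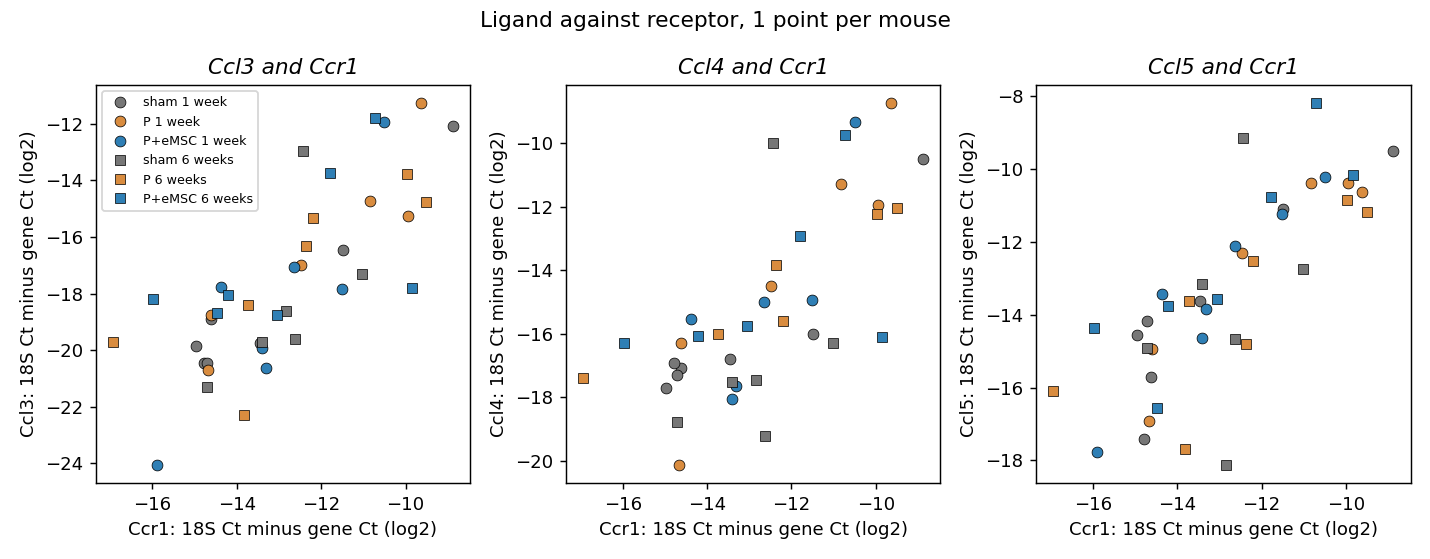
Level of each ligand against the level of Ccr1 (both 18S Ct minus gene Ct, log2), with 1 point per mouse, colour for treatment, circles for 1 week and squares for 6 weeks. Ligand and receptor rise together across mice, with r of 0.78 (Ccl3), 0.72 (Ccl4) and 0.80 (Ccl5) after centring on the groups.

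**Figure D4:**
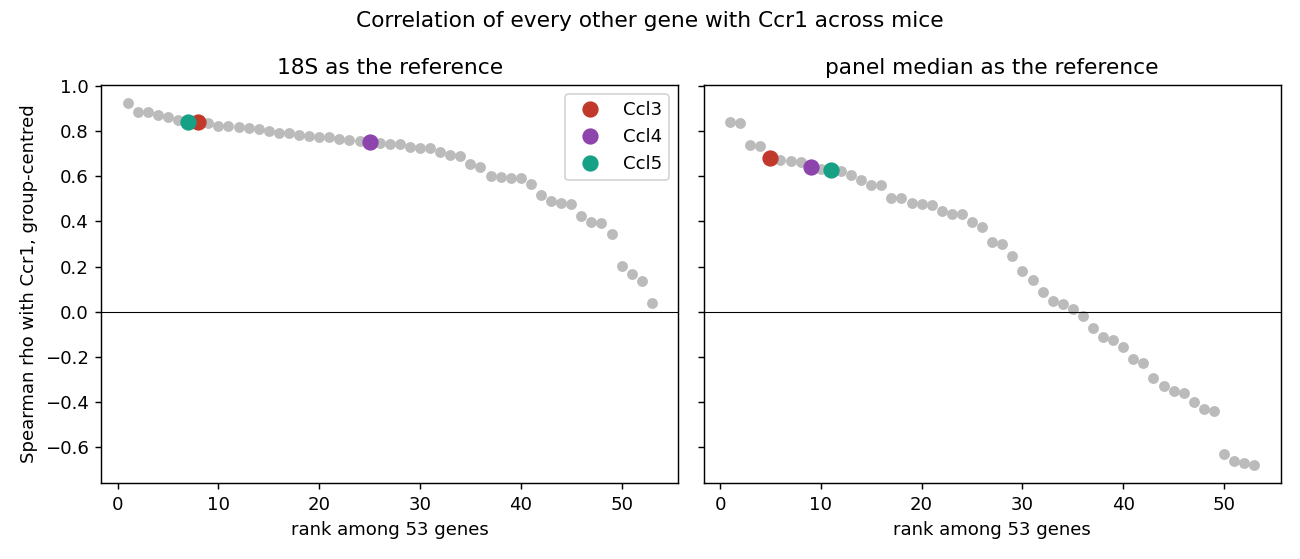
Spearman rho of each of the 53 other genes with Ccr1 (group-centred), ranked, with 18S (left) or the panel median (right) as the reference. The 3 ligands lie at ranks 7, 8 and 25 on the left and 5, 9 and 11 on the right.

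Within single groups the relation was not even. In sham at 1 week r with *Ccr1* was 0.97 for *Ccl3*, 0.93 for *Ccl4* and 0.91 for *Ccl5* (n = 7, exact permutation p = 0.0062, 0.00079 and 0.0034). In P at 1 week it was 0.92, 0.93 and 0.95 (n = 6, exact p = 0.0042, 0.0042 and 0.0097), and in P+eMSC at 1 week 0.86, 0.79 and 0.94 (exact p = 0.017, 0.057 and 0.0032). In P at 6 weeks it was 0.78, 0.94 and 0.80 (exact p = 0.040, 0.0042 and 0.032). In P+eMSC at 6 weeks it was 0.85 for *Ccl5* (exact p = 0.017), with 0.56 for *Ccl3* and 0.50 for *Ccl4* (exact p = 0.204 and 0.297). In sham at 6 weeks it was 0.57, 0.36 and 0.30 (n = 6, exact p = 0.246, 0.386 and 0.610), the lowest of any group for *Ccl4* and *Ccl5*. The picture differed by Spearman rho, which was 0.64, 0.43 and 0.93 in P+eMSC at 6 weeks. In sham at 6 weeks rho was 0.89, 0.60 and 0.66 (exact permutation p = 0.033, 0.242 and 0.175, adjusted p = 0.276 for *Ccl3*). Against the panel median the r of these sham mice was 0.27 for *Ccl3*, -0.028 for *Ccl4* and -0.35 for *Ccl5*. The median r of all genes with *Ccr1* was 0.91 in P, 0.87 in P+eMSC and 0.80 in sham at 1 week, and 0.52, 0.79 and 0.70 at 6 weeks. Ranked by r among 53 genes, *Ccl3*, *Ccl4* and *Ccl5* stood at 3, 7 and 10 in the sham mice of week 1. The P mice of that week gave ranks 25, 22 and 19, and the P+eMSC mice 28, 39 and 13. At 6 weeks the ranks were 12, 2 and 11 for P, 45, 48 and 19 for P+eMSC and, of 52 genes, 33, 42 and 44 for sham. Adjusted over the genes of each group, the exact p of r was below 0.05 for each ligand in sham at 1 week (0.027, 0.0084 and 0.018) and in P at 1 week (0.018, 0.018 and 0.023). It was also below 0.05 for *Ccl3* and *Ccl5* in P+eMSC at 1 week (0.032 and 0.012), for *Ccl4* in P at 6 weeks (0.041) and for *Ccl5* in P+eMSC at 6 weeks (0.046). Whether r differed between groups was not tested.

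To set each ligand against its receptor within a mouse, the Ct of the ligand was taken from the Ct of *Ccr1*, a difference in which 18S drops out. No ligand was called in any of the 9 comparisons. The closest were *Ccl4* in P against sham at 6 weeks, with a shift of 2.35 (interval -2.90 to 4.16, exact p = 0.065), and *Ccl5* in P+eMSC against P at 6 weeks, with one of 1.51 (interval -0.41 to 3.47, exact p = 0.097). In the first of these 0 of the 53 other genes (0%) were called relative to *Ccr1*, and in the second 0 of 53 (0%). In P+eMSC against P at 1 week, where 12 of 53 genes (22.6%) were called relative to *Ccr1*, the ligands had shifts of -1.53 (*Ccl3*), -1.05 (*Ccl4*) and 0.43 (*Ccl5*), with exact p of 0.366, 0.589 and 0.534. In P against sham at 1 week 9 of 53 genes (17%) were called, and the ligands gave 0.60, 0.97 and -0.19.

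Over all mice the difference of *Ccl5* and *Ccr1* was the tightest of the 3, with an SD of 1.6 (n = 40), against 1.97 for *Ccl3* and 2.06 for *Ccl4*. In sham at 6 weeks *Ccl3* minus *Ccr1* lay between -7.01 and -5.77 in 5 mice and at -0.51 in mouse 408. *Ccl4* minus *Ccr1* lay between -6.59 and -4.07 in the same 5 mice and at 2.45 in mouse 408. *Ccl5* minus *Ccr1* had both ends in this group, from -5.29 in mouse 2277 to 3.29 in mouse 408. The level of *Ccr1* in mouse 408, -12.44, was near the group median of -12.73, so all 3 ligands stood high there with the receptor in the middle of its group.

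**Figure D5:**
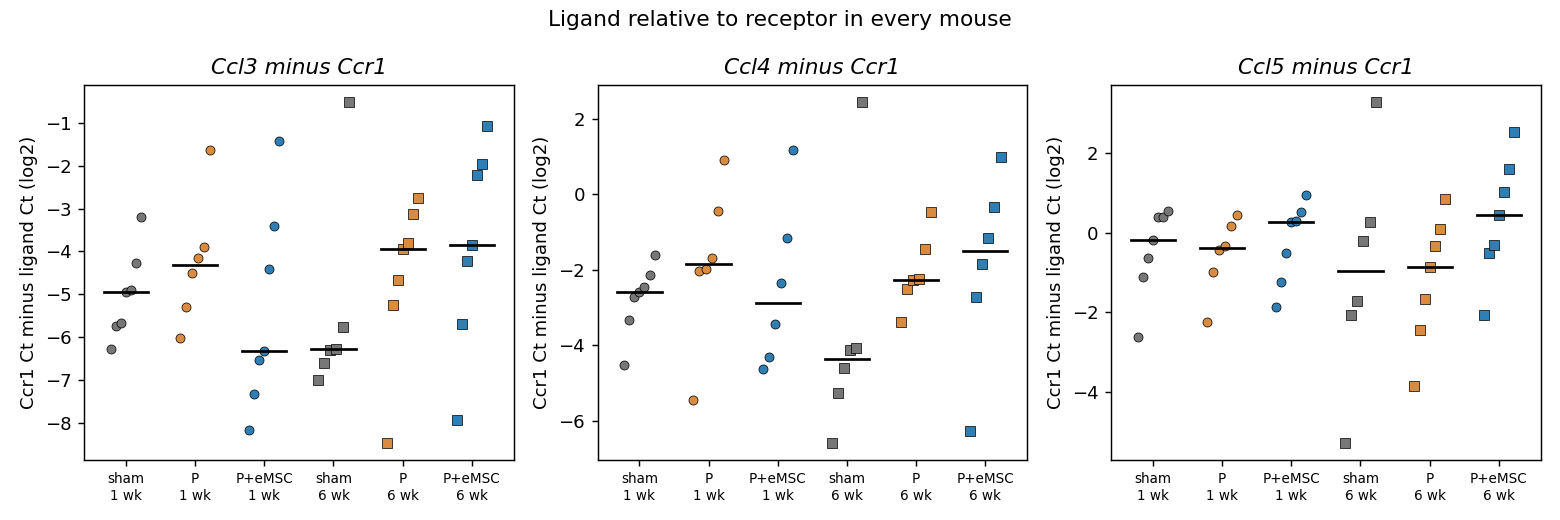
Ccr1 Ct minus ligand Ct (log2) in every mouse of the 6 groups, with 1 point per mouse and a line at the group median. The highest sham point at 6 weeks in each panel is mouse 408, at -0.51 (Ccl3), 2.45 (Ccl4) and 3.29 (Ccl5).

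The closest pair among the members was *Ccl3* and *Ccl4*, with r of 0.95 and rho of 0.91 (n = 37). Each was the first of 53 genes by rho for the other, with 18S and with the panel median (r of 0.94 and rho of 0.93). *Ccl3* minus *Ccl4* had an SD of 0.91 over the mice, and ran from -3.53 to 0.27. *Ccl3* with *Ccl5* gave r of 0.86 and *Ccl4* with *Ccl5* 0.81. Outside the members, the genes most like *Ccl3* by rho were *Ccr7* (0.86), *Timp1* (0.86) and *Cxcl2* (0.84), and those most like *Ccl4* were *Cxcl10* (0.84), *Il1b* (0.83) and *Ccr7* (0.83). *Ccr7* is a chemokine receptor of dendritic cells and inflammatory macrophages, *Cxcl2* a neutrophil chemokine and *Il1b* an early inflammatory cytokine. *Ccl5* was most like *Ccr7* (0.96), *Ccl2* (0.92) and *Timp1* (0.89). *Ccr1* was most like *Timp1*, a metalloproteinase inhibitor (0.93), *Mmp19* (0.89) and *Ccl2*, a monocyte chemokine (0.88). *Timp1* stayed first for *Ccr1*, and *Ccr7* first for *Ccl5*, when the panel median replaced 18S (rho of 0.84 and 0.90). Each rho was taken over 37 to 41 mice and is given as a description.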

How the data were processed

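TaqMan qPCR in a Fluidigm array was run on skin of 41 NSG mice. The authors preamplified the cDNA, took Ct values from the Fluidigm software and deposited them without normalization, with 999 or no value where undetected. They also deposited a table of linear fold change ratios (2 to the power of minus the ΔΔCt, 18S as reference, sham as calibrator). Ct values were used here, and the deposited ratios only as an alternative, within 0.01 (log2) of the calculated ones in all but 1 mouse per member. For mouse 2356, labelled P at 6 weeks, 49 of 54 genes matched the 1 week calibrator and 1 the 6 week one. Its label was kept. The deposited ratios of *Ccl4* in 3 mice without a Ct were not used. qPCR has no read depth, so the number of mice limits the precision.

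Levels were 18S Ct minus gene Ct. Groups were compared by the exact two-sided Mann-Whitney test with at least 4 values per group, undetected values left out, called at p of 0.0513 or less as in the study's methods, with Benjamini-Hochberg adjustment over 54 genes. P-values measure the spread between mice, which in P+eMSC can include differences between cell donors. The same test was used on Ccr1 Ct minus gene Ct over 53 genes. Correlations used 100000 permutations within groups, or exact permutations within 1 group. Interactions were fitted in limma. Named genes were the members, the 3 genes highest in rho with each, and list genes called where a member was called. The members and lists were chosen with earlier results of these data known. The exact test was checked on simulated data. Alternatives were the panel median, undetected values ranked lowest, Ct of 25 or more as undetected, mouse 2356 moved or left out, limma, a permutation test of the mean, other thresholds, permutation within number series, deposited ratios and leaving out each mouse. Python 3.11.15 (numpy 2.4.6, pandas 2.3.3, scipy 1.17.1, matplotlib 3.10.9), R 4.3.3 and limma 3.58.1 were used. All 4 members matched RefSeq symbols.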

Additional observations from a re-analysis of the deposited data

Results flagged for a closer look

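Of 42 sets of values examined (4 genes and 3 ligand-receptor differences in 6 groups), 5 held a mouse that stood apart by Dixon's criterion, which chance gives in about 1 of 20 sets. Sets that share a mouse and a gene are not independent. All 5 were a highest value. The *Ccl4* level was -10.48 in mouse 2269 (sham, 1 week), where the next mouse was at -16.01. It was -9.32 in mouse 10 (P+eMSC, 1 week), where the next was at -14.93, and -9.99 in mouse 408 (sham, 6 weeks), where the next was at -16.28. In mouse 408 *Ccl3* minus *Ccr1* was -0.51 against -5.77 in the next mouse, and *Ccl4* minus *Ccr1* was 2.45 against -4.07.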

How the results depend on the processing

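The number of members called was 0 in each of the 9 comparisons and remained 0 under the alternatives run, except as follows. With a Ct of 25 or more treated as undetected, *Ccl4* was called (1 member) in P against sham at 1 week, because this removes mouse 2355. In that setting 3 members could be tested, and 4 of 52 genes (7.69%) were called, 3 of them lower in P. The adjusted p of *Ccl4* was 0.667. Leaving out each mouse in turn gave 0 to 1 members called (*Ccl4*) in P against sham at 1 week. The same held at 6 weeks in P against sham and in P+eMSC against sham (mouse 408), and 0 were called in the other 6. Both calls at 6 weeks leave out the undetected *Ccl4* values of the mesh groups. The interaction and the ligand-receptor differences kept 0 calls, and the correlations of the ligands with *Ccr1* pooled over the groups kept their sign and their side of the threshold, also without mouse 408, an alternative chosen after seeing the data (rho from 0.76 to 0.86). Within sham at 6 weeks the panel median turned *Ccl5* from r = 0.30 (rho = 0.66) to -0.35 (-0.71) and *Ccl4* from 0.36 to -0.028. With limma on the panel median, also chosen after seeing the data, 1 member was called at an unadjusted p in 3 comparisons. *Ccr1* was called in P+eMSC against P at 6 weeks (-1.64, adjusted p in limma = 0.319). It was also called in P against sham at 1 week (1.69, adjusted p in limma = 0.298). *Ccl4* was called in P against sham at 6 weeks (3.22, adjusted p in limma = 0.165). In the same fits 7, 7 and 12 of 54 genes were called (13%, 13% and 22.2%).

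Several shifts changed sign, none of them called. Against the panel median, P+eMSC against P at 6 weeks gave -1.66 for *Ccl3* (1.01 against 18S) and -0.58 for *Ccl5* (1.95), P against sham at 6 weeks gave 1.16 for *Ccl5* (-0.53), and P+eMSC against sham gave 0.38 for *Ccl3* at 1 week and -0.12 for *Ccr1* at 6 weeks. Between weeks it gave 0.18 for *Ccl3* in P, -0.25 for *Ccl4*, -0.20 for *Ccl5* and -0.92 for *Ccr1* in P+eMSC, and -0.46 for *Ccl3* and -0.52 for *Ccl5* in sham. Limma on the panel median gave these signs too, except for *Ccl3* between weeks in P, at -1.17 and -0.49 in P+eMSC against P at 6 weeks, 1.60 for *Ccl5* in P against sham at 6 weeks, 0.17 and -0.24 against sham in P+eMSC, -0.25, -0.23 and -0.84 between weeks in P+eMSC and -0.47 and -0.56 in sham, where *Ccr1* was at -0.065. The interaction of *Ccr1* became -0.49, and -0.11 with the number series as a covariate. With undetected values ranked lowest, *Ccr1* at 6 weeks was at 0.27 in P+eMSC against P and at -0.13 in P against sham, and *Ccl4* minus *Ccr1* at -0.22 in P+eMSC against sham at 1 week. With mouse 2356 moved to 1 week or left out, these 2 shifts of *Ccr1* were again 0.27 and -0.13, and that of *Ccl3* in P against sham at 6 weeks was -0.034. With a Ct of 25 or more undetected, *Ccl5* in P against sham at 6 weeks was at 0.17 and *Ccl4* between weeks in sham at 0.0059. The difference in means, in limma and in the permutation test, was 0.028 for *Ccl4* in P+eMSC against P at 6 weeks, -0.028 for *Ccr1* in P+eMSC against sham at 6 weeks and -0.064 for *Ccl5* between weeks in sham. Leaving out each mouse changed the sign in 10 shifts. At 6 weeks, *Ccr1* ranged from -0.75 to 0.033 in P+eMSC against P, from -0.13 to 0.77 in P against sham and from -0.69 to 0.42 in P+eMSC against sham. In P against sham at 6 weeks *Ccl3* ranged from -0.034 to 1.79 and *Ccl5* from -1.54 to 0.34, and *Ccl3* in P+eMSC against sham at 1 week from -0.40 to 0.79. Between weeks *Ccr1* ranged from -1.35 to 0.28 in P and from -0.25 to 0.72 in P+eMSC, *Ccl4* in P+eMSC from -0.56 to 1.65 and *Ccl5* in sham from -0.71 to 0.88. The causes were not tested. Each mouse received a single treatment and no animal number is shared between groups, so mice could not be paired. The paper states that the eMSC came from several women, each giving a separate cell line. Which donor's cells each P+eMSC mouse received is not given in the sources used here. Pairing by donor was therefore not possible, and donor and mouse spread cannot be told apart in P+eMSC.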
